A study of Mus musculus with 2 samples.

Results

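Gpsm2, Numa1, Insc, Pard3, Pard6b, Prkci, Dctn1, Dlg1 and Llgl2 encode proteins that orient the mitotic spindle or set up epithelial polarity. These 9 genes, of 31053 in the count matrix, were chosen by name, and their transcripts were counted in sorted cycling cells of the mouse corneal epithelium. The series asks how stem cell fate is regulated in this tissue. Live GFP-positive cells were sorted from corneal epithelium of CycB1-GFP mice, a line in which the fluorescent reporter marks cells that express Cyclin B1, and were profiled by droplet single-cell RNA-seq with 3′ end counting. The labels give 1 group of 2 replicates with this 1 genotype and no treatment, and the sources used here do not give strain, age, sex or the number of animals. There was therefore no unsorted or reporter-negative group, and all values describe cells that carried the reporter.

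An oriented spindle decides whether the daughters of a basal epithelial cell stay side by side on the basement membrane or are placed one above the other, and stratified epithelia are known to use both kinds of division. LGN, the product of Gpsm2, is anchored at the membrane by Gα subunits of heterotrimeric G proteins and binds NuMA (Numa1), which recruits dynein and its cofactor dynactin (Dctn1) to pull on the astral microtubules. Inscuteable (Insc) is known as the adaptor that can link LGN to the apical Par complex of Par3 (Pard3), Par6 (Pard6b) and atypical protein kinase C (Prkci), whereas Dlg1 and Llgl2 belong to the Scribble group of basolateral polarity proteins.

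The 2 libraries held 3458 and 3294 barcodes with 19001107 and 18030874 UMIs (unique molecular identifiers, each standing for 1 captured RNA molecule). A cell was kept if it had 500 or more detected genes and a mitochondrial share below 20%, which left 3187 cells of library 1 and 3001 of library 2 with medians of 5571 and 5886 UMIs, and 5 barcodes occurred in both libraries. Markers of the labelled tissue were present, as all 6 corneal epithelial markers (Krt12, Krt5, Pax6, Aldh3a1, Cdh1, Epcam) were detected and summed to 23088 and 26714 CPM (a gene's UMIs per 1000000 UMIs of the same cells). All 4 goblet cell markers were at 0, and 8 immune markers summed to 14.3 and 42.8 CPM. Each library is 1 sample, and no label says that they came from separate animals. Library was a block, so p-values measure how differences within a library varied between these 2 libraries, with a spread pooled over genes. They do not measure a spread between animals.

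Of the 9 genes, 8 were detected in both libraries and Insc in neither. No Insc UMI was found in any of the 6188 cells, so the upper limits, for counting error only, are 0.0485% of cells with a UMI and a level of 0.0820 CPM. Insc lies at chr7:114743694-114850383 on the plus strand (ENSMUSG00000048782; GENCODE M21, GRCm38). A level below that limit was not detectable at this depth, and Insc entered no test.

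Over all kept cells of a library, Gpsm2 stood at 75.6 CPM in library 1 (95% Poisson interval 71.8 to 79.7) and 82.0 in library 2 (77.9 to 86.4). Numa1 stood at 93.9 (89.6 to 98.4) and 120.5 (115.5 to 125.7). The dynactin subunit gene Dctn1 had 52.5 and 60.9. In the Par complex, Pard3 had 81.8 and 88.0, Prkci 45.3 and 49.4, and Pard6b 6.55 and 7.98 CPM. The basolateral genes Dlg1 and Llgl2 had 26.3 and 29.1, and 12.04 and 15.96. In these CPM, without further normalisation, all 8 detected genes were higher in library 2, by 1.08-fold for Pard3 and Gpsm2 up to 1.28-fold for Numa1 and 1.33-fold for Llgl2. The intervals of the 2 libraries overlapped for Gpsm2, Pard3, Pard6b, Prkci and Dlg1. How many of all genes were higher in library 2 was not counted, so the direction is not read as a trait of these genes. The intervals cover counting error only, and with 1 sample on each side the library difference has no test.

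The stretch before the Gpsm2 start is shown beside those of the 3 genes whose levels ran most nearly in parallel with it, Kif11, Prc1 and Ube2s (Pearson r 0.993, 0.993 and 0.992 over 12 sums of 2 libraries, 3 keratin bins and 2 mitotic states, each library centred, 5893 genes compared). These sums share their libraries and differ in depth, so r is a description. Kif11 encodes a spindle kinesin, Prc1 a crosslinker of the spindle midzone, and Ube2s a ubiquitin-conjugating enzyme that works with the anaphase-promoting complex. Each run of 110 bases covers 120 to 11 bases before the start in RefSeq (GRCm38.p6), 5′ to 3′ on the gene's strand. Capitals mark TTTGAA or its reverse complement TTCAAA, known as the cell cycle genes homology region, and CCAAT or its reverse complement ATTGG, the core of the box bound by NF-Y. Both elements are textbook features of promoters of genes expressed late in the cell cycle.
Gpsm2: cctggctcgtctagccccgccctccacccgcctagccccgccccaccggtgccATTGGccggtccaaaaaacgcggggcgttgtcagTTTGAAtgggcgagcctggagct
Kif11: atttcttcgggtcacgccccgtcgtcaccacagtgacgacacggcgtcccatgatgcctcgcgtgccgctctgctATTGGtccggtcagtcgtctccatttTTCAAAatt
Prc1: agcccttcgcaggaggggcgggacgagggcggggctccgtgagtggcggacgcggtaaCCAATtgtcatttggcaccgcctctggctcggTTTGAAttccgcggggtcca
Ube2s: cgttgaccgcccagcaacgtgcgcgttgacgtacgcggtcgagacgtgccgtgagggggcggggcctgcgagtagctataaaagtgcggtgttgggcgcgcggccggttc

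The runs lie at chr3:108722310-108722419 (minus strand) for Gpsm2, chr19:37376262-37376371 (plus) for Kif11, chr7:80294356-80294465 (plus, the downstream of 2 listed starts) for Prc1 and chr7:4812351-4812460 (minus) for Ube2s. In the Gpsm2 run, a CCAAT match begins 67 bases and a TTTGAA match 33 bases before the start. Kif11 has them at 45 and 19 bases and the printed Prc1 run at 62 and 30, so in these 3 runs the CCAAT match lies upstream of the TTTGAA match. The window of the other Prc1 start (run at chr7:80294331-80294440), upstream of the one shown, has a CCAAT match 37 bases before that start and no TTTGAA match. The Ube2s window holds neither. Over all 32851 RefSeq windows of 250 bases, searched on both strands, 16.0% held TTTGAA, 33.8% held CCAAT and 5.55% held both. Of 13 such windows for 8 of the spindle and polarity genes, 3 held TTTGAA, 5 held CCAAT and 2 held both, 1 of Gpsm2 and 1 of the 4 windows of Dlg1. The Numa1 window held neither. A match is a description of letters and not a binding site.

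Mitotic RNA was read from the summed UMIs of Ccnb1, Cdc20 and Plk1 in each cell. Cells with at least 4 such UMIs are called mitotic-RNA-high and cells with 0 mitotic-RNA-zero. Equal numbers were drawn from both within deciles of total UMIs, 572 of each in library 1 and 531 of each in library 2. Near the limit, 228 and 213 cells had 3 of these UMIs and 203 and 173 had 4. The states are ranges along a score and not cell types.

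Gpsm2 and Numa1, the genes of the cortical LGN-NuMA link, were both higher in mitotic-RNA-high cells, and none of the other 6 detected genes passed the test. Gpsm2 lies at chr3:108678638-108722309 on the minus strand (ENSMUSG00000027883), and its span overlaps Clcc1 and Gm27244 on the other strand. Its level was 128 CPM in high cells (95% Poisson interval 116 to 141) against 30.0 in zero cells (24.4 to 36.5) of library 1. In library 2 it was 132 (120 to 146) against 43.2 (36.2 to 51.1). Both high sums lay far above both zero sums, by 4.27-fold and 3.07-fold within the libraries. The log2 fold change was 1.77 (SE 0.13), with an adjusted p of 6.2e-38 (edgeR quasi-likelihood test, Benjamini-Hochberg over 10454 genes, threshold 0.05). That p rests on a pooled estimate of the spread and ran up to 0.0017 over the alternatives, all of which called Gpsm2, with log2 fold changes of 1.66 to 1.99.

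Numa1 lies at chr7:101934111-102014964 on the plus strand (ENSMUSG00000066306) and overlaps Il18bp and 3 predicted genes on the other strand. It stood at 110 CPM in high cells (99.2 to 122) against 73.1 in zero cells (64.2 to 82.9) of library 1, and at 133 (120 to 146) against 92.8 (82.4 to 104) in library 2. High exceeded zero within each library, without overlap of the intervals, but the zero interval of library 2 overlapped the high interval of library 1. The log2 fold change was 0.48 (SE 0.12; edgeR adjusted p = 0.00067). The call was lost without library as a block (edgeR adjusted p = 0.20) and with DESeq2 (adjusted p = 0.44), while the log2 fold change stayed between 0.42 and 0.60 in all alternatives.

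These 2 calls of 8 genes tested stand beside 19.6% of all genes past the threshold (8.94% higher, 10.6% lower). The median log2 fold change of the 8 genes was 0.078, against -0.0076 for all genes.

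Among the other 6, Dctn1, the subunit through which dynactin meets microtubules, had 59.1 against 43.8 CPM in library 1 and 60.5 against 49.3 in library 2, a log2 fold change of 0.29 (SE 0.14; edgeR adjusted p = 0.15). Pard3, the scaffold of the Par complex, had 86.0 against 80.3 and 96.1 against 77.4, a log2 fold change of 0.13 (SE 0.12; edgeR adjusted p = 0.53). Prkci, its kinase, had 53.9 against 42.0 in library 1 but 40.6 against 46.7 in library 2, so the signs differed in this draw of cells. Its log2 fold change was 0.016 (95% interval -0.28 to 0.31), below the 0.019 to 0.36 of the 12 tested alternatives, none of which passed. Dlg1 also differed in sign in this draw, with 26.3 against 21.6 and 29.1 against 30.4. Its log2 fold change was 0.027 (-0.33 to 0.39) and was positive in 11 of 12 tested alternatives (-0.19 to 0.28), none of which passed. The intervals of Prkci and Dlg1 rest on the pooled spread and do not reach the Gpsm2 value.

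The other 2 genes had lower levels in high cells in both libraries without passing the test. Llgl2, the homologue of the fly tumour suppressor Lgl, had 11.3 against 14.4 and 12.1 against 18.9 CPM, a log2 fold change of -0.58 (SE 0.23; edgeR adjusted p = 0.062). It passed in 3 of 12 tested alternatives, among them another random draw of the cells (edgeR adjusted p = 0.033). With the states matched on keratin bin as well, which also redrew the cells, Llgl2 was at -0.24 (edgeR adjusted p = 0.54). Pard6b, the Cdc42-binding adaptor of the Par complex, rested on 20 to 32 UMIs per sum, with 5.77 against 7.19 and 6.20 against 10.2 CPM and a log2 fold change of -0.60 (SE 0.33; edgeR adjusted p = 0.21). Pard6b passed in 1 of 12 tested alternatives, at -1.05 (edgeR adjusted p = 0.020). That setting removed the cells with the highest doublet scores and also redrew the matched cells, and the part of each was not tested.

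**Figure D1:**
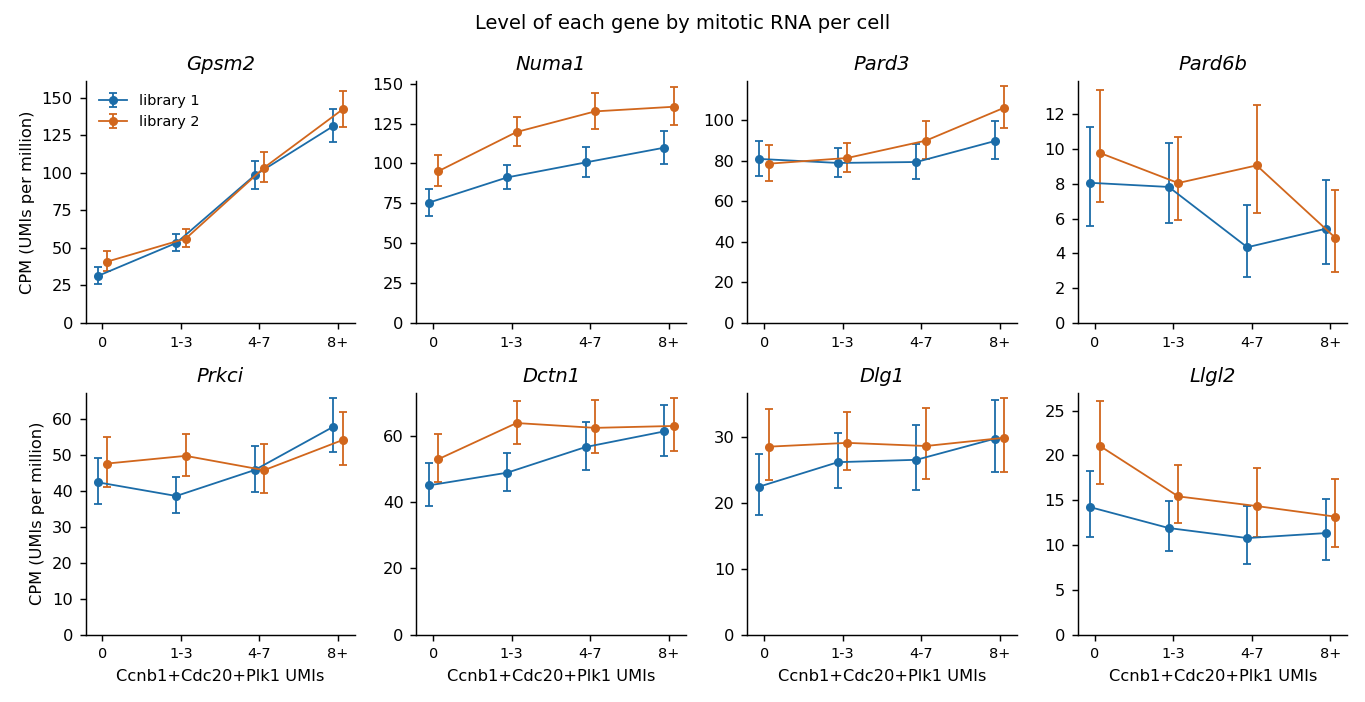
CPM (y axis) of the 8 detected genes in cells with 0, 1 to 3, 4 to 7 and 8 or more Ccnb1, Cdc20 and Plk1 UMIs (x axis), for library 1 and library 2 (points; bars are 95% Poisson intervals), in all kept cells without a match on depth. Gpsm2 goes from 31.3 to 131 in library 1 and from 40.9 to 142 in library 2, and no other gene covers such a range.

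The rise of Gpsm2 was graded. Without a match on depth, its level in cells with 0, 1 to 3, 4 to 7 and 8 or more mitotic UMIs was 31.3, 53.3, 98.4 and 131 CPM in library 1. In library 2 it was 40.9, 56.2, 103 and 142. The intervals of neighbouring classes did not overlap in either library. Numa1 went through 75.4, 91.3, 101 and 110 in library 1 and 95.1, 120, 133 and 136 in library 2, and its neighbouring intervals overlapped except between the classes 0 and 1 to 3 in library 2. Deeper cells more easily reach a high class, as median depth was 4366 and 4359 UMIs in zero cells and 6593 and 6679 in all high cells.

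Detection per cell followed the same order. With each cell thinned to 2000 UMIs, a Gpsm2 UMI was found in 19.9% of 1138 high cells and 6.16% of 731 zero cells of library 1, and in 22.2% of 1065 and 7.13% of 701 cells of library 2. Without thinning the shares were 53.8% and 13.0%, and 55.9% and 15.4%. A Numa1 UMI was found in 18.5% and 14.5% of the thinned cells of library 1 and in 22.2% and 16.4% of those of library 2. Cells with fewer than 2000 UMIs (662 in all) were left out, and no cell type here could serve as one that lacks these genes, so background from free RNA was not measured.

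Other marker lists also differed between the states, and their part in the results was not tested. The 6 conjunctival markers summed to 1243 in high and 2746 CPM in zero cells of library 1, and to 1228 and 2298 in library 2. The 6 superficial corneal markers summed to 661 and 945, and to 518 and 1262. Each of these 2 sums rests mostly on 1 gene. Over all kept cells, Krt6a gave 1596 of 1928 CPM of the conjunctival sum in library 1 and 905 of 1588 in library 2. Slurp1 gave 723 of 781 and 782 of 808 CPM of the superficial sum. Immune markers summed to 1.44 and 48.0 in library 1 and to 37.5 and 42.2 in library 2. With the states matched on keratin bin as well as depth, the log2 fold change was 1.88 for Gpsm2 and 0.60 for Numa1. That match did not include these marker lists, and their sums were not taken in its cells.

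Of 75 further genes of these pathways, grouped by role, 66 could be tested between the mitotic states, and 7 were higher and 1 lower in high cells, beside 8.94% and 10.6% of all genes, with a median log2 fold change of 0.12. Among 17 cortical partners of LGN and NuMA, Sapcd2 and Gnai3 were higher and Epb41 lower. Sapcd2, which encodes a protein known to bind LGN and to limit its place at the cortex, had 59.6 and 66.0 TMM-normalised CPM in high cells against 7.60 and 9.33 in zero cells of libraries 1 and 2 (log2 fold change 2.89, SE 0.20; edgeR adjusted p = 2.5e-46). Gnai3, which encodes a Gα subunit that anchors LGN, had 117 and 111 against 92.8 and 86.3 (0.34, SE 0.12; edgeR adjusted p = 0.022). Epb41, which encodes a membrane skeleton protein that binds NuMA, had 19.4 and 16.5 against 28.8 and 27.7 (-0.65, SE 0.19; edgeR adjusted p = 0.0064).

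In the dynein and dynactin list, 2 of 18 tested genes were higher and none lower. Nde1, a dynein cofactor, went from 22.8 and 23.5 to 90.1 and 107 normalised CPM (log2 fold change 2.08; edgeR adjusted p = 3.9e-41), and the light chain gene Dynll1 from 892 and 759 to 1012 and 968 (0.27; edgeR adjusted p = 0.0066). Of 11 Par complex partners, Ect2, whose product acts in cytokinesis and also binds Par proteins, was higher (2.18; edgeR adjusted p = 8.3e-54), as was Stk11, the mammalian Par-4 kinase (0.37; edgeR adjusted p = 0.026). Of 8 planar cell polarity genes tested, Vangl1 was higher, with 74.1 and 83.5 against 23.4 and 26.7 normalised CPM (1.65; edgeR adjusted p = 4.3e-25). None of 6 Scribble, 4 Crumbs and 2 Numb family genes passed. Sapcd2, Ect2, Nde1 and Vangl1 thus shared with Gpsm2 a log2 fold change above 1.5, whereas most subunits of the machinery did not pass the test.

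**Figure D2:**
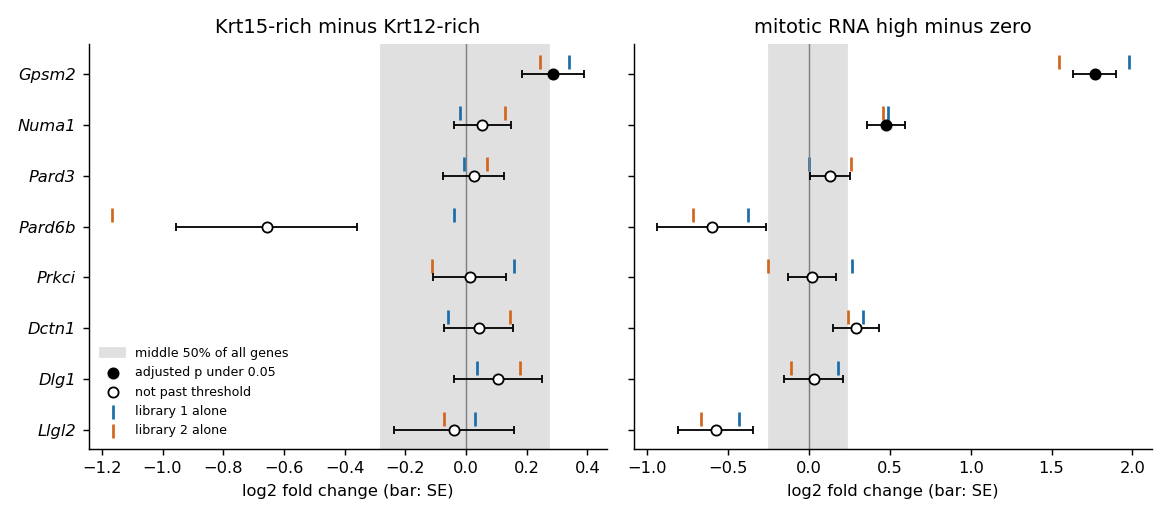
Log2 fold change (x axis) of the 8 detected genes between Krt15-rich and Krt12-rich cells (left) and between mitotic-RNA-high and mitotic-RNA-zero cells (right), as edgeR estimate (circle, filled where the adjusted p was under 0.05) with its SE (bar), the values of single libraries (ticks) and the middle 50% of all genes tested (grey). Gpsm2 lies at 1.77 and Numa1 at 0.48 in the right panel, while in the left panel 6 of 8 estimates lie within the grey range.

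The next comparison followed the keratins. Krt12 is the keratin of the differentiated corneal epithelium and Krt15 a keratin of limbal and other basal cells, and cells were binned by the share Krt12/(Krt12+Krt15) of their UMIs where these summed to at least 5 (6072 cells). A share under 0.4 (Krt15-rich) held 663 cells of library 1 and 959 of library 2, 0.4 to 0.8 (mixed) held 161 and 164, and above 0.8 (Krt12-rich) held 2304 and 1821. Within 0.05 of the limits lay 65 cells at 0.4 and 151 at 0.8. The bins are ranges of this share and not cell types, and mixed cells can be doublets or carry free RNA, which was not tested.

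Gpsm2 was higher in Krt15-rich than in Krt12-rich cells, and the other 7 detected genes did not pass the test. Its level was 93.1 CPM (83.4 to 104) in Krt15-rich and 71.5 (67.1 to 76.1) in Krt12-rich cells of library 1, and 92.6 (84.4 to 101) and 78.1 (73.1 to 83.4) in library 2. The intervals of the 2 bins did not overlap in either library. The log2 fold change was 0.29 (SE 0.10; edgeR adjusted p = 0.029). This 1 call of 8 genes tested stands beside 32.5% of all 11145 genes (16.9% higher, 15.6% lower), and the medians were 0.033 for the 8 genes and -0.0051 for all genes.

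Mitotic RNA also differed between the bins, and its part in the Gpsm2 difference was not tested. Mitotic-RNA-high cells made up 41.0% of Krt15-rich and 34.9% of Krt12-rich cells in library 1, and 45.0% and 31.9% in library 2. Without a match on depth, mitotic-RNA-high cells had 133 CPM of Gpsm2 in Krt15-rich against 109 in Krt12-rich cells of library 1. In library 2 they had 133 against 119. Among mitotic-RNA-zero cells alone, the Gpsm2 log2 fold change between the bins was -0.25 (edgeR adjusted p = 0.62). The Krt15-rich zero sums held only 26 and 32 Gpsm2 UMIs, and the libraries differed in direction (34.8 against 31.3 and 31.4 against 45.3 CPM). The call was also lost with bins matched on total UMIs (0.26, edgeR adjusted p = 0.36), a match that left only 161 and 164 cells per bin. It was lost too with the highest doublet scores removed (0.28, edgeR adjusted p = 0.0502), without the library block (0.29, edgeR adjusted p = 0.17) and with DESeq2 (0.29, adjusted p = 0.37). The 6 limbal markers summed to 17425 and 20027 CPM in Krt15-rich against 8129 and 4382 in Krt12-rich cells. This list holds Krt15, which defines the bins, so part of its difference was fixed by the binning. The conjunctival sum, mostly Krt6a over all kept cells, also differed (2331 and 3240 against 1795 and 873). The part of these markers was not tested.

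Numa1 had 95.1 CPM in Krt15-rich and 93.6 in Krt12-rich cells of library 1, and 128 and 117 in library 2. Its log2 fold change was 0.054, with a 95% interval of -0.14 to 0.25. Dctn1 had 52.4 against 53.1 and 65.4 against 59.2, and a log2 fold change of 0.041 (-0.19 to 0.28). For Numa1 the library made a larger difference than the bin, without a test.

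In the Par complex, Pard3 had 83.7 against 81.7 CPM in library 1 and 90.8 against 86.7 in library 2, with a log2 fold change of 0.025 (-0.18 to 0.23). Prkci had 50.4 against 43.9 and 46.7 against 50.6, with opposite signs and a log2 fold change of 0.012 (-0.24 to 0.26). Pard6b, which covers chr2:168081004-168101203 on the plus strand, had 6.65 against 6.64 CPM in library 1 and 4.17 against 9.79 in library 2, from 21 to 113 UMIs per sum. Its log2 fold change was -0.66 (SE 0.30; edgeR adjusted p = 0.095), -0.038 in library 1 alone and -1.17 in library 2 alone. Matching the bins on total UMIs turned the direction of Pard6b to 0.30 (SE 0.84).

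Neither basolateral gene passed the test. Dlg1 had 28.0 against 26.5 CPM and 31.8 against 28.1 (log2 fold change 0.10, -0.19 to 0.40), and Llgl2 had 12.7 against 12.1 and 15.3 against 16.1 (-0.041, -0.45 to 0.36). Mixed cells differed from neither neighbour in any of the 8 genes by the test. Against Krt15-rich cells the log2 fold changes ran from -0.28 for Dlg1 to 0.10 for Pard6b beside 5.57% of all genes called (2.95% higher, 2.62% lower), and against Krt12-rich cells from -0.55 for Pard6b to 0.030 for Prkci beside 7.06% (4.15% higher, 2.92% lower). DESeq2 also called none of the 8 in either comparison. Gpsm2 against Krt15-rich cells, at -0.27, was the 1 value of these comparisons with an unadjusted edgeR p under 0.05 (edgeR adjusted p = 0.29).

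**Figure D3:**
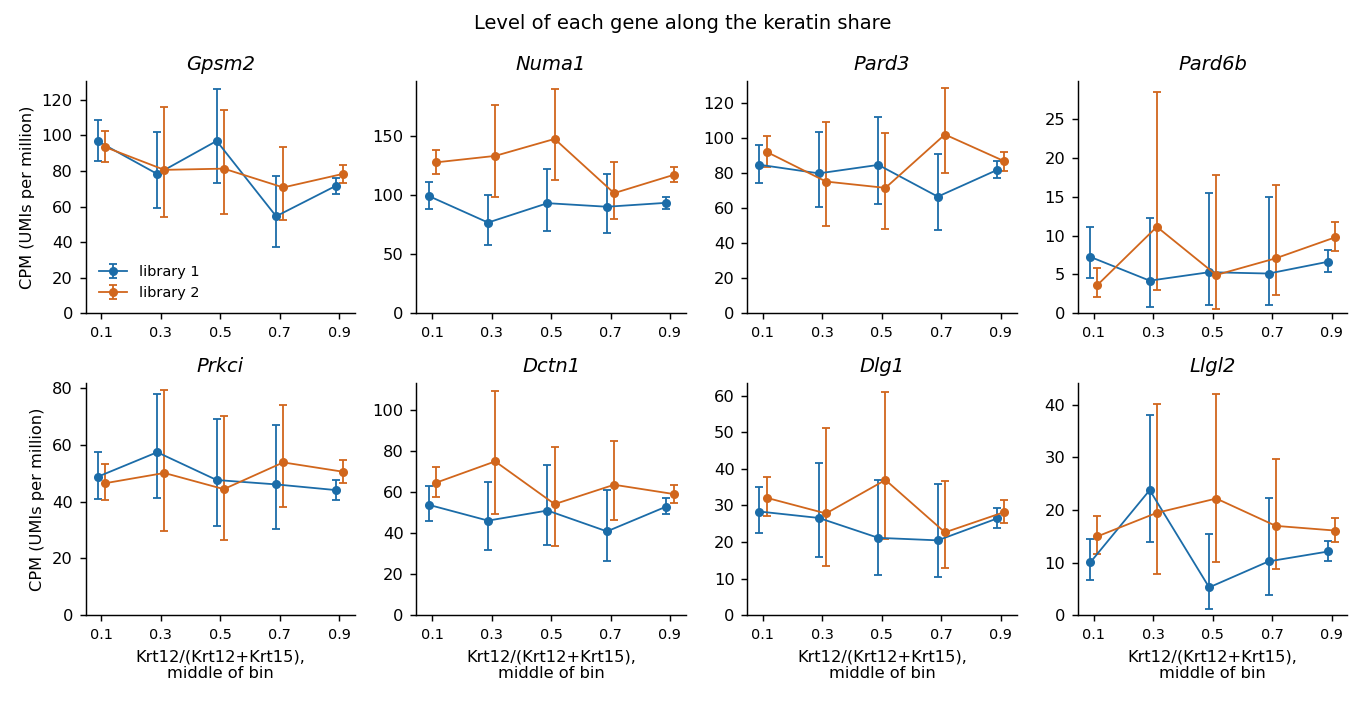
CPM (y axis) of the 8 detected genes in 5 equal bins of the share Krt12/(Krt12+Krt15) (x axis, middle of the bin), for library 1 and library 2 (points; bars are 95% Poisson intervals). Gpsm2 starts at 96.8 and 93.5 in the bin richest in Krt15 and ends at 71.6 and 78.4 in the bin richest in Krt12, and the 3 bins between hold few cells and wide intervals.

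In 5 equal bins of the share, Gpsm2 ran through 96.8, 78.3, 96.9, 54.6 and 71.6 CPM in library 1 and 93.5, 80.6, 81.3, 70.8 and 78.4 in library 2, from low to high Krt12. Numa1 ran through 99.5, 76.9, 93.4, 90.4 and 93.7 in library 1 and 128, 133, 148, 102 and 117 in library 2. The 3 middle bins held 55 to 116 cells per library, so their order was not resolved, and Numa1 was higher in library 2 in each of the 5 bins.

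Of the 75 further pathway genes, 67 could be tested between Krt15-rich and Krt12-rich cells, and 15 were higher and 10 lower, beside 16.9% and 15.6% of all genes, with a median log2 fold change of 0.093. Among cortical partners, 4 of 17 were higher and 3 lower. Msn, which encodes the actin linker moesin, had 85.3 and 49.7 normalised CPM in Krt15-rich against 27.1 and 7.49 in Krt12-rich cells of libraries 1 and 2 (2.07; edgeR adjusted p = 0.0024). Cdh1, the E-cadherin gene and one of the corneal epithelial markers, had 153 and 183 against 90.8 and 93.1 (0.87; edgeR adjusted p = 2.9e-08). Gnai2, another Gα subunit gene, had 282 and 271 against 334 and 323 (-0.25; edgeR adjusted p = 0.021).

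Among dynein and dynactin genes, 3 of 18 were higher and 1 lower. Nde1 (0.49; edgeR adjusted p = 0.00089) and Dynll1 (0.38; edgeR adjusted p = 0.0043) were higher and the second light chain gene Dynll2 lower (-0.72; edgeR adjusted p = 2.8e-07), so the paralogous light chains went opposite ways. In mitotic-RNA-zero cells alone the Nde1 log2 fold change was -0.012. Among Par complex partners, 3 of 11 were higher and 3 lower. Tiam1, a Rac exchange factor that binds Par3 (0.72; edgeR adjusted p = 7.3e-06), and Ect2 (0.69; edgeR adjusted p = 2.3e-06) were higher, and the Par6 paralogue Pard6g (-0.54; edgeR adjusted p = 8.8e-05) and the Par-1 kinase gene Mark3 (-0.27; edgeR adjusted p = 0.046) lower. Pard6g had 72.4 and 79.1 normalised CPM in Krt15-rich against 108 and 112 in Krt12-rich cells. In mitotic-RNA-zero cells matched on depth within bin, Ect2 had 49.9 against 28.7 in library 1 and 32.1 against 30.3 in library 2.

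Planar cell polarity genes, which align cells within the plane of the epithelium, had 5 of 9 higher and 2 lower in Krt15-rich cells, beside 16.9% and 15.6% of all genes. Vangl1 had 74.9 and 80.5 normalised CPM against 40.6 and 40.8 (0.94; edgeR adjusted p = 1.3e-07), and Celsr2, an atypical cadherin gene, 91.8 and 90.4 against 47.6 and 48.2 (0.93; edgeR adjusted p = 5.0e-08). The receptor gene Fzd6 went the other way, with 32.7 and 39.7 against 65.8 and 71.5 (-0.92; edgeR adjusted p = 4.7e-07). Scribble genes had 0 of 6 higher and 1 lower, and no Crumbs or Numb family gene passed. Mixed cells differed from Krt15-rich cells in 5 of the 67 genes (2 higher, 3 lower) and from Krt12-rich cells in 5 (2 higher, 3 lower), near the shares of all genes called (5.57% and 7.06%). Against Krt15-rich cells Dynll2 (0.42) and Fzd6 (0.62) were higher and Ect2 (-0.54) and Celsr2 (-0.63) lower, and against Krt12-rich cells Cdh1 was higher (0.58) and Pard6g lower (-0.40).

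**Figure D4:**
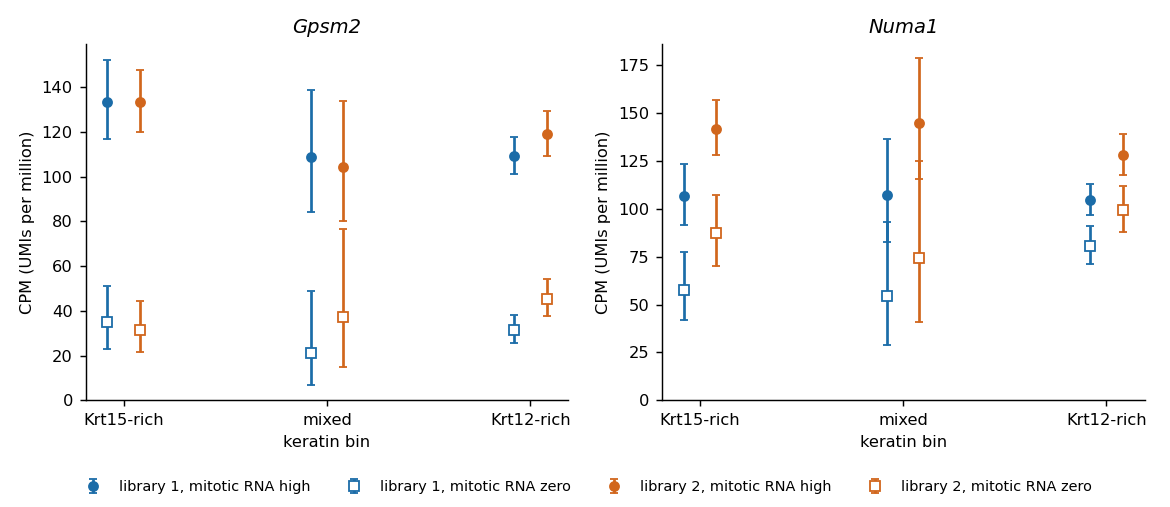
CPM (y axis) of Gpsm2 (left) and Numa1 (right) in mitotic-RNA-high (filled) and mitotic-RNA-zero (open) cells of each keratin bin (x axis), for library 1 and library 2, in all kept cells without a match on depth (bars are 95% Poisson intervals). Gpsm2 lies between 104 and 133 in all 6 high sums and between 21.0 and 45.3 in all 6 zero sums.

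The difference by mitotic state was then compared between the keratin bins. Without a match on depth, Gpsm2 had 133 CPM in high against 34.8 in zero cells of the Krt15-rich bin of library 1, and 133 against 31.4 in library 2. In Krt12-rich cells it had 109 against 31.3 and 119 against 45.3, and in mixed cells 109 against 21.0 and 104 against 37.2. No high sum overlapped a zero sum in any bin or library.

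With depth matched within bin, 127 and 155 cells of each state entered from Krt15-rich and 407 and 254 from Krt12-rich cells. The Gpsm2 log2 fold change of high against zero cells was 2.02 (SE 0.25; edgeR adjusted p = 4.7e-06) in Krt15-rich and 1.61 (SE 0.18; edgeR adjusted p = 1.2e-06) in Krt12-rich cells. The difference between these, tested as an interaction, was 0.41 (95% interval -0.25 to 1.08; edgeR adjusted p = 0.99). It was -0.017 in library 1 alone and 0.87 in library 2 alone.

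For Numa1 the values were 0.89 (SE 0.19; edgeR adjusted p = 0.0039) in Krt15-rich and 0.41 (SE 0.14; edgeR adjusted p = 0.092) in Krt12-rich cells, and the interaction was 0.49 (95% interval -0.0078 to 0.98; edgeR adjusted p = 0.92), with 0.48 and 0.50 in the single libraries. The call in 1 bin and not in the other is therefore not shown to be a difference between the bins. The other 6 genes passed in neither bin. These counts of 2 and 1 of 8 genes stand beside 5.54% (3.01% higher, 2.53% lower) and 7.69% (3.6% higher, 4.09% lower) of 9280 genes called within the bins. The values within bins were read from the interaction fit and were added to the planned comparisons afterwards. Neither edgeR nor DESeq2 called an interaction for any gene (0.0% of 9280), and 503 genes had an unadjusted edgeR p under 0.05.

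By the same measure of likeness as for Gpsm2, the genes closest to Numa1 were Terf1 (r 0.96), Pdik1l (0.95) and Nudcd2 (0.95), and those closest to Dctn1 were Acbd6 (0.97), Sphk2 (0.97) and 1110059E24Rik (0.96). For Prkci they were Iws1 (0.95), Cfl2 (0.94) and Snrnp200 (0.94), for Pard3 Med6 (0.91), Taf11 (0.90) and Mlx (0.90), and for Dlg1 Kansl2 (0.90), Uqcrfs1 (0.82) and Rbm47 (0.82). Pard6b and Llgl2 lay under the minimum of 20 CPM for this comparison.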

How the data were processed

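The values used are UMI counts, whole numbers as the authors deposited them, from 10x Genomics 3′ v3 libraries per the labels' protocols. Cell Ranger 3.1.0, Seurat 5.0.0 and the builds GRCm38 and mm10 are named in the submitters' processing notes, and the step each served is not given in the sources used here. The suffix of a barcode gave the library, with no link to a labelled replicate number. Scrublet (scanpy 1.11.5) called 4 of 6188 cells (0.0646%), too few to have worked, so doublets remain.

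Counts were summed per library and keratin bin, per library and mitotic state, or per library, bin and state (6, 4 and 8 sums), and tested over all genes with edgeR 4.0.16 in R 4.3.3 (quasi-likelihood, robust, TMM, filterByExpr). Library was a block, since sums of 1 library share its preparation. Krt12, Krt15, Ccnb1, Cdc20 and Plk1 were left out of the fits that they define. P-values were adjusted by Benjamini-Hochberg and called at 0.05. DESeq2 1.42.0, another normalisation, no filter on low counts, no block, single libraries, other limits for cells, bins and states and other treatments of depth were tried. Another alternative left out the 186 cells with the highest Scrublet scores. Intervals for fold changes come from the SE and the t distribution with the fit's degrees of freedom. In the mitotic fit these were 9139 for Prkci and 10454 for Dlg1, far above its 1 residual degree of freedom. Its intervals therefore depend on the spread pooled over genes. Intervals for levels (exact Poisson) and the limit for 0 counts (3 UMIs or cells) cover counting error only.

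The members, lists and tests were chosen with earlier results of these data known. All 9 members are named. Of the 7 wider lists, the 2 largest log2 fold changes per direction, list and comparison are named among genes past the threshold with a mean of at least 20 CPM and the same sign in both libraries. The 3 most alike genes per member were taken among genes of at least 20 CPM, on log2 values with a prior count of 2. The fits were tested on simulated data. Where the simulated spread was on the common trend, false calls stayed near the threshold. Where it varied between genes, false calls exceeded it, so the calls are liberal, and the criterion for this check was set after its first outcome had been seen.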

Additional observations from a re-analysis of the deposited data

How the results depend on the processing

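Gpsm2 stayed past the threshold between mitotic states in all 12 tested alternatives. The keratin call of Gpsm2 held in 6 of 11. Low counts limit Pard6b and Llgl2, the mixed bin held 161 and 164 cells, and 1 residual degree of freedom in the mitotic fit makes its p-values sensitive to the pooled spread. Values of 1 library alone have no test. The cause of the moves below was not tested.

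Without the library as a replicate block, edgeR called 864 genes higher and 686 lower between Krt15-rich and Krt12-rich cells, against 1884 and 1741 with it, 41 and 9 for mixed against Krt15-rich (329 and 292), 64 and 12 for mixed against Krt12-rich (462 and 325) and 219 and 178 between mitotic states (935 and 1109), with 0 and 1 of the 8 members called in the keratin and mitotic comparisons. The block changed no call of the interaction, with 0 genes either way. DESeq2 gave 999 and 769, 191 and 116, 283 and 99, and 211 and 172 in the same order, with 0 and 1 members.

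Bins matched on total UMIs gave 718 and 648, 164 and 154, and 209 and 137 genes with 0 members. That match left only 161 cells per bin in library 1 and 164 in library 2. Mitotic-RNA-zero cells alone gave 643 and 645, 82 and 65, and 100 and 69 with 0 members. With bin limits of 0.3 and 0.9, mixed against Krt15-rich gave 537 and 511, and without the filter on low counts 439 were lower there and 497 lower against Krt12-rich. Between mitotic states, higher and lower genes numbered 601 and 679 with a mitochondrial limit of 10%, 600 and 690 with 1000 genes per cell, and 485 and 555 with cells thinned to 2000 UMIs. Another random draw of the matched cells alone gave 690 and 832, and the first 2 of these settings also redrew the cells. Removing the cells with the highest doublet scores gave 0 members between bins and 4 between states, where the matched cells were also redrawn. For the interaction, 1 gene was higher with at least 8 mitotic UMIs, 1 lower without depth matching, and 8 higher and 2 lower without the filter.

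Signs turned between Krt15-rich and Krt12-rich cells for values that did not pass in either setting, except those of Gpsm2 and Nde1. In mitotic-RNA-zero cells, log2 fold changes were -0.25 for Gpsm2, -0.34 for Numa1, -0.10 for Prkci, -0.053 for Dctn1, 0.038 for Llgl2 and -0.012 for Nde1. With bins matched on total UMIs they were -0.14 for Numa1, -0.19 for Pard3 and 0.30 for Pard6b. Pard3 was at -0.0021 with at least 10 keratin UMIs and Prkci at -0.018 with the highest doublet scores removed. Between mitotic states, Dlg1 was at -0.19 with the states matched on keratin bin, and its other 11 tested alternatives were positive.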
